A study of Arabidopsis thaliana with 6 samples.

Results

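Histones are the proteins around which DNA is wound in the nucleosome, and their transcripts were compared between root tips of wild type and *bron-2* *Arabidopsis*. The members were 43 loci of the 33560 genes in the series. They were chosen by locus identifier and not by any measured value, though earlier results of these data were known. They encode linker H1, all H2A (*HTA*) and H2B (*HTB*) genes, H3.1, H3.3 and H4. Seedlings 5 days old gave root tips of about 2 mm, from the Columbia-0 accession as wild type (3 biological replicates) and from *bron-2* (3 biological replicates). *bron-2* carries a T-DNA insertion in *BRON* (AT1G75710), a transcription factor gene, and was represented by a single insertion line. All plants grew on plates with MS medium and sucrose under long days, the labels give no treatment for either genotype, and each replicate pooled the roots of several plates. The study profiled *bron-2* to find which transcripts depend on *BRON*, and the histone genes show what happened to those that supply chromatin for new DNA.

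Plant histone genes fall into groups that differ in when they are used. Replication-type genes are transcribed mainly in S phase and provide canonical H2A, H2B, H3.1 and H4 for chromatin behind the replication fork, where the chaperone complex CAF-1 deposits H3.1. Replacement variants are placed into chromatin throughout the cell cycle: H2A.Z through the SWR1 remodeling complex and H3.3 through the HIRA chaperone complex. H2A.X is the form phosphorylated beside DNA breaks, H2A.W marks plant heterochromatin, and H1 binds the linker DNA between nucleosomes. Here 27 genes were counted as replication-type (4 canonical H2A, 10 H2B, 5 H3.1 and 8 H4), 6 as replacement (3 H2A.Z and 3 H3.3) and 10 as other (3 H1, 2 H2A.X, 3 H2A.W, *HTA4* and *HTB8*).

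Levels are FPKM, fragments scaled by transcript length and by the mapped total of the library, and can therefore be compared between genes. Such values do not give the reads behind each library. The spacing of the lowest values gave relative depths of 0.965 to 1.1 for the wild type and 1.19 to 1.25 for *bron-2*, with wild type replicate 1 set to 1. *BRON* itself was listed at 17.9, 16.1 and 17.3 FPKM in wild type, and the *bron-2* libraries had 1.25, 0.925 and 1.097 FPKM (log2 fold change -3.12, limma adjusted p = 7.91e-05), so the libraries match their labels. Root markers were high: *EXP7* of root hairs lay between 395 and 523 FPKM and *CASP1* of the endodermis between 704 and 1378 FPKM. The quiescent center marker *WOX5* stayed at or below 0.522 FPKM.

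The histone genes were among the more abundant transcripts of the root tip. A mean of at least 1 FPKM was asked of a gene to be tested, which 40 of the 43 reached. Their median was 66.4 FPKM, against 11.2 FPKM for all 17107 tested genes, and 12 of the 43 were among the 1000 highest genes. Together they made up 0.536% ± 0.0256 of the summed FPKM in wild type and 0.545% ± 0.0307 in *bron-2* (SD, n = 3 each). Their mean levels spanned 316-fold, from 1.24 FPKM for *HTB10* to 391 FPKM for AT4G40040, an H3.3 gene. The plot of levels by library shows that this span lies between genes and not between genotypes.

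**Figure D1:**
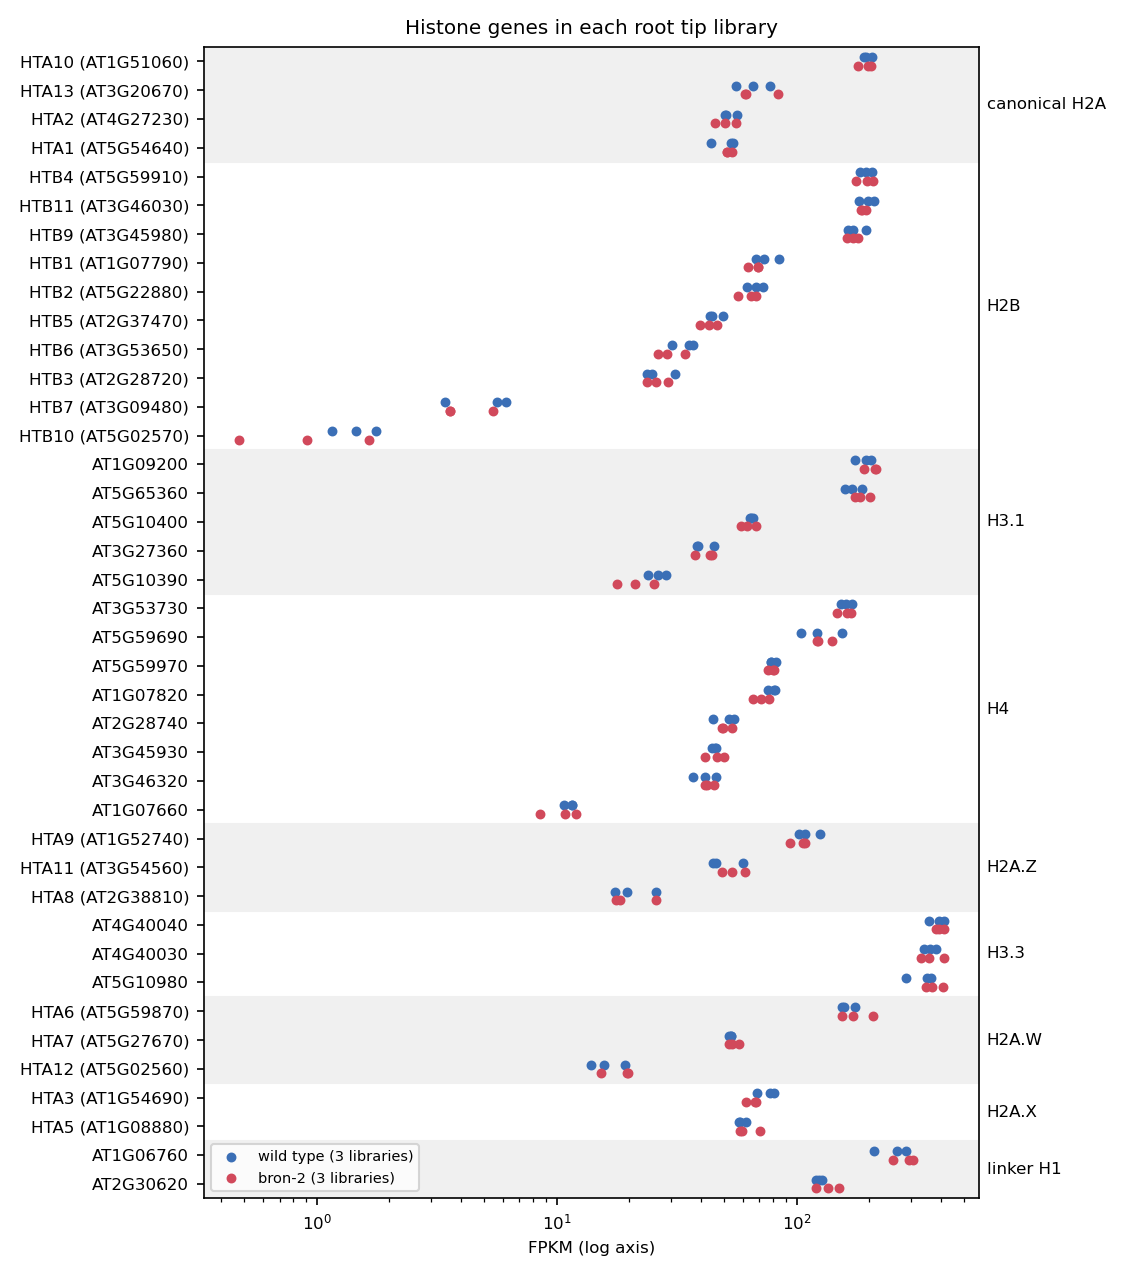
FPKM (log axis) of each of the 40 tested histone genes, one row per gene and one point per library, wild type in blue and *bron-2* in red, ordered by class and level. The H3.3 genes sit at the right, with means between 353 and 391 FPKM, *HTB10* and *HTB7* at the left, and the colors overlap in every row but that of *HTA3*.

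The H3 types differed in level. All 3 H3.3 genes stood above every other histone gene. AT4G40040 was at 358, 393 and 409.7 FPKM in wild type and 381, 394 and 409.8 FPKM in *bron-2*. The other H3.3 genes, AT4G40030 and AT5G10980, averaged 363 and 353 FPKM, and the ranges of all 3 over the 6 libraries overlapped. Within each library AT4G40040 was above AT5G10980. AT4G40040 was also above AT4G40030 in every library but *bron-2* replicate 3, where they were at 409.8 and 410.0 FPKM. H3.1 came mainly from a pair of genes. AT1G09200 was at 194, 175 and 205 FPKM in wild type and 192, 213 and 213 FPKM in *bron-2*, and AT5G65360 averaged 179 FPKM. The remaining H3.1 genes averaged between 23.9 and 63.7 FPKM.

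Of the summed FPKM of the listed H3.1 and H3.3 genes, H3.3 thus supplied 68.5% ± 1.32 in wild type and 68.6% ± 0.611 in *bron-2* (SD, n = 3 each). The values were 67.2%, 69.8% and 68.6% against 68.6%, 67.9% and 69.2%. The mixture of H3.1 and H3.3 transcripts from these genes did not differ between genotypes by more than the spread of the replicates. Between H3.1 and H3.3 genes the coding identity was 74.0 to 80.3% over 15 pairs. Within the types it was 80.3 to 89.5% for H3.1 and 78.6 to 88.8% for H3.3, so overall identity does not separate them. The encoded proteins differ between the types at residues 31, 41, 87 and 90, counted after the start methionine. The stretch over codons 29 to 43 is shown for the highest genes of each type, taken from RefSeq's TAIR10.1 coding sequences 5′ to 3′, with codons 31 and 41 in capitals because they distinguish the types. AT1G09200 lies at chr1:2971571-2972334, AT5G65360 at chr5:26119859-26120581, AT4G40040 at chr4:18557149-18558945 and AT4G40030 at chr4:18555532-18557106, all on the minus strand.
AT1G09200 (H3.1): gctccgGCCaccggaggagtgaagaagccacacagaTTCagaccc
AT5G65360 (H3.1): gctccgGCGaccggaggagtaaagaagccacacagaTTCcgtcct
AT4G40040 (H3.3): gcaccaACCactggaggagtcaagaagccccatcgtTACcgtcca
AT4G40030 (H3.3): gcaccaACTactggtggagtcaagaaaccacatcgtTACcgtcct
No 100-base stretch of the 3 H3.3 transcripts or of these H3.1 transcripts is shared with another gene, so the types can be told apart by exact matches of that length.

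In the other core histones 1 to 3 genes carried much of the level. *HTA10* (AT1G51060), a canonical H2A, was at 206, 195 and 191 FPKM in wild type and 181, 199 and 204 FPKM in *bron-2*, which was 53.9% ± 3.75 and 53.2% ± 1.83 of the canonical H2A sum (SD, n = 3 each). Among the 10 H2B genes, *HTB4* (AT5G59910) was at 185, 194 and 206 FPKM in wild type and 177, 196 and 209 FPKM in *bron-2*. *HTB11* and *HTB9* followed with means of 193 and 174 FPKM, and the lowest, *HTB7* and *HTB10*, averaged 4.63 and 1.24 FPKM. The 8 H4 genes encode the same kind of histone from levels of 10.9 FPKM (AT1G07660) to 161 FPKM (AT3G53730). AT3G53730 was at 161, 153 and 171 FPKM in wild type and 148, 162 and 168 FPKM in *bron-2*, and the groups overlapped.

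Among the variants, *HTA9* (AT1G52740) was the highest H2A.Z gene, at 103, 109 and 125 FPKM in wild type and 93.5, 107 and 109 FPKM in *bron-2*. It gave 61.2% ± 1.75 of the H2A.Z sum in wild type and 57.9% ± 2.21 in *bron-2* (SD, n = 3 each). *HTA6* (AT5G59870) was the highest H2A.W gene, at 158, 154 and 176 FPKM in wild type and 155, 173 and 209 FPKM in *bron-2*. The top *bron-2* value came from replicate 3, and the groups overlapped. The linker histone gene AT1G06760 was at 209.7, 263 and 286 FPKM in wild type and 253, 295 and 307 FPKM in *bron-2*. AT2G30620, also H1, was at 128, 124 and 121 FPKM and at 121, 135 and 149.9 FPKM. Both H1 genes had positive log2 fold changes (0.18 and 0.12), and neither passed the test (limma adjusted p = 0.698 and 0.727).

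Transcripts of 3 members were at or near 0. *HIS1-3* (AT2G18050), the H1 gene known for induction by drought, was listed at 0.181 FPKM in wild type replicate 1 and at 0 in the other 5 libraries. *HTA4* (AT4G13570) and *HTB8* (AT1G08170), the latter an H2B variant known from sperm, were listed at 0 in all 6 libraries. These 3 genes did not reach a mean of 1 FPKM and were not tested.

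Gene structure went with the histone family, and within H3 with the division into sets. In the TAIR10.1 annotation 22 of the 27 replication-type genes have a single exon in their longest transcript, and 0 of the 6 replacement genes do. All 10 H2B genes counted as replication-type, all 5 H3.1 genes and 7 of the 8 H4 genes have 1 exon. The H3.3 genes have 3 to 5 exons, the H2A.Z genes 2 or 3, and the canonical H2A genes 2, like those of H2A.X and H2A.W. *HTB8*, not counted as replication-type, has 1 exon. Some members lie side by side. The H3.3 genes AT4G40030 and AT4G40040 are 42 bases apart, the H3.1 genes AT5G10390 and AT5G10400 577 bases apart, and *HTB3* lies 1536 bases from the H4 gene AT2G28740. Adjacency did not go with equal level for H3.1, where AT5G10400 averaged 63.7 FPKM and AT5G10390 23.9 FPKM.

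The promoters of histone genes in plants are known for a short element, the octamer CGCGGATC, and for the hexamer ACGTCA. These and the other motifs given below were searched on both strands in the 300 bases before the annotated start of each gene. The octamer was found in 10 of the 43 histone promoters (23.3%) and in 0.15% of the promoters of all 27443 protein-coding genes, that is in 41 promoters. By class it was in 3 of 5 H3.1, 2 of 4 canonical H2A, 2 of 8 H4, 1 of 3 H3.3, 1 of 3 H2A.W and 1 of 3 H1 promoters, and in none of the 10 H2B or 3 H2A.Z promoters. The hexamer was found in 12 of 43 (27.9%), against 8.72% of all promoters, and 8 of these 12 were H2B promoters. The E2F forms TTTCCCGC, TTTGGCGC, TTTCGCGC and TTTGCCGC were found in 4 of 43 (9.3%), all of them replication-type, against 1.57%. The letters TATAAA, counted on either strand, were found in 21 of 43 (48.8%), against 52.86% of all promoters. They were in all 5 H3.1 promoters and in 0 of 3 H3.3 promoters, and a match may be in the reverse direction. The nearest match ended 23, 25 and 29 bases before the start of AT5G10400, AT3G27360 and AT5G65360. For AT5G10390 and AT1G09200 it was 107 and 261 bases away. No match of one motif overlapped a match of another.

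These 4 promoters are printed because they show the octamer in a replication-type H2A, in H3.1 and in H3.3, and the hexamer in H2B. Each is the 200 bases before the annotated start of the gene, on the strand of the gene, 5′ to 3′, from RefSeq's TAIR10.1 sequence, with the octamer or hexamer in capitals on whichever strand it lies.
*HTA10* (chr1:18926611-18926810, plus strand): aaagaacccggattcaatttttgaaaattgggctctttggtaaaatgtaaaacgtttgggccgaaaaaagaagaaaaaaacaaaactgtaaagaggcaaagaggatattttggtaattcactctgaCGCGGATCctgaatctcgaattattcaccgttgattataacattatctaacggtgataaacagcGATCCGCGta
*HTB11* (chr3:16914132-16914331, minus strand): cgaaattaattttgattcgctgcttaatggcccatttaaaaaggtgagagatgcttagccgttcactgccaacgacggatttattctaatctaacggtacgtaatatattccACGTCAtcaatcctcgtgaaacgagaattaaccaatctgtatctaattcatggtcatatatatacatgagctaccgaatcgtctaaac
AT1G09200 (chr1:2972335-2972534, minus strand): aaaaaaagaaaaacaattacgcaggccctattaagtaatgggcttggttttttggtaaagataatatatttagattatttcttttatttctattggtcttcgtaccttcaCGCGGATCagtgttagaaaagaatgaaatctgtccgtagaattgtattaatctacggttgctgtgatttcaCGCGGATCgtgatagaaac
AT4G40040 (chr4:18558946-18559145, minus strand): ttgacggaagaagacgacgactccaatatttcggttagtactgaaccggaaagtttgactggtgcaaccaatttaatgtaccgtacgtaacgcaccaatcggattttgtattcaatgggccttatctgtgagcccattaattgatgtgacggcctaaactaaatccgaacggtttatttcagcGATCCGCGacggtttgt
*HTA10* and AT1G09200 each hold a pair of octamers, and in *HTA10*, AT1G09200 and AT4G40040 the nearest ends 2, 11 and 9 bases before the start. The 10 genes with an octamer had a median level of 175 FPKM and lay between 10.9 and 391 FPKM, while the 30 tested genes without it had a median of 53.2 FPKM and reached 363 FPKM. The ranges overlap widely, and the 300 bases before AT4G40030, the gene with the second highest mean of the family, hold none of the 4 motifs. Most of that window lies inside its neighbor AT4G40040. The median log2 fold change between genotypes was 0.04 with the octamer and -0.02 without it. A match of letters is not a measured binding site.

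None of the 40 tested histone genes differed between the genotypes at the unadjusted p of 0.05 that the study used for its calls. The test here was limma on log2(FPKM + 1), two-sided, and fold changes are *bron-2* over wild type on that scale. The count was 0 of 40 lower, where 5.76% of all tested genes passed, and 0 of 40 higher, where 4.03% passed. With Benjamini-Hochberg adjustment 0 of 40 passed as well, against 0.0818% of all tested genes (14 genes), and the smallest adjusted p of a histone gene was 0.519. Fold changes were negative for 21 and positive for 19 genes, with a median of -0.01, beside -0.000995 over all tested genes. Leaving out a library moved the count of lower calls from 0 to at most 2. *HTB7* (log2 fold change -0.42) and AT5G10390 (-0.35) passed without wild type replicate 1, and *HTA3* (-0.27) without wild type replicate 3. *HTB6* (-0.30) and AT5G10390 (-0.41) passed without *bron-2* replicate 2, and *HTB10* (-0.54) without *bron-2* replicate 3. In bulk samples such as these, fewer cells of a type and less transcript per cell cannot be told apart.

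Because a p above the threshold does not show that levels were equal, the 95% intervals of the fold changes matter more here than the calls. All 40 intervals contained 0. For 37 of 40 genes the interval lay wholly within a 1.5-fold change in either direction. It reached beyond for *HTB10* (-0.86 to 0.21), *HTB7* (-0.71 to 0.29) and AT5G10390 (-0.60 to 0.02), which are the lowest expressed genes of their classes. The median SD of the histone genes within a genotype was 0.119 on the log2 scale, beside 0.151 for all tested genes. These groups were not matched for level, with medians of 66.4 and 11.2 FPKM. The plot of fold changes with their intervals shows all classes around 0.

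**Figure D2:**
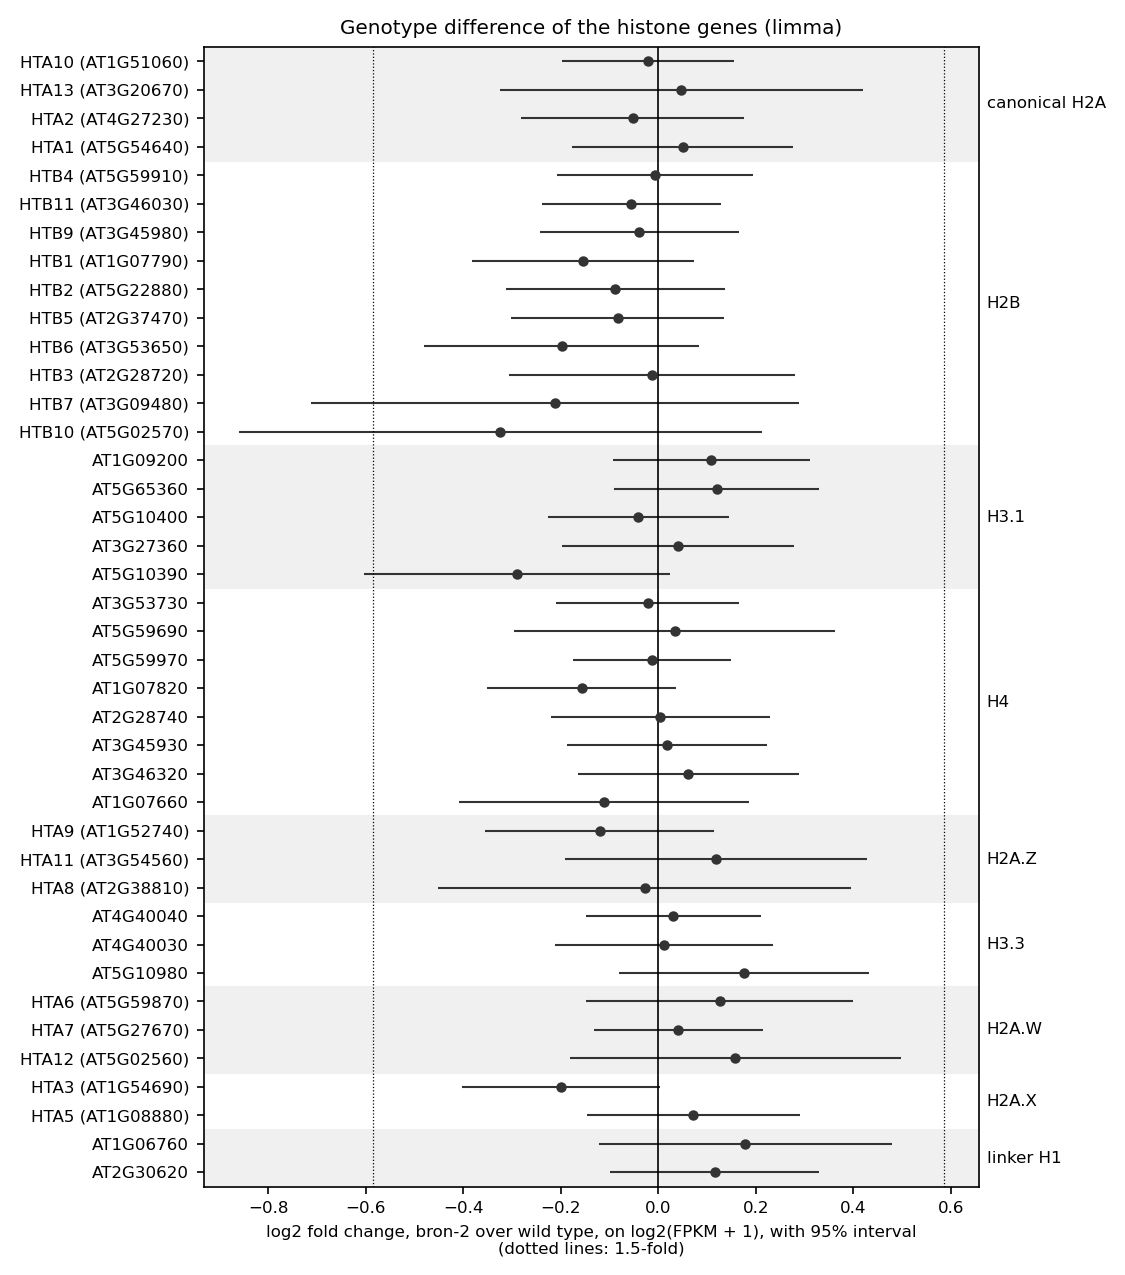
Log2 fold change (*bron-2* over wild type, log2(FPKM + 1), limma) of the 40 tested histone genes as points with 95% intervals as lines, by class; dotted lines mark a 1.5-fold change. Every interval crosses 0, and those of *HTB7*, *HTB10* and AT5G10390 reach past the left dotted line.

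The members nearest to the threshold were chosen after their values were seen. *HTA3* (AT1G54690), an H2A.X gene, was at 80.4, 77.5 and 68.6 FPKM in wild type, and in *bron-2* at 61.8, 67.5 and 67.2 FPKM. It was the only histone gene whose groups did not overlap, 1 of 40 with *bron-2* lower and 0 of 40 with *bron-2* higher, where 8.67% and 7.06% of all tested genes were so separated. Its log2 fold change was -0.20 (limma p = 0.0529, adjusted p = 0.519), and an exact permutation test of its 6 values gave p = 0.1, the smallest possible with 3 against 3. *HTA5*, the second H2A.X gene, averaged 59.1 FPKM in wild type and 62.4 FPKM in *bron-2*. Part of *HTA3* (22.8% of its 100-base windows) overlaps the antisense gene AT1G54680, which was listed at 0.459 to 0.867 FPKM. AT5G10390 (H3.1) was at 23.9, 28.5 and 26.4 FPKM in wild type and 17.9, 25.4 and 21.1 FPKM in *bron-2*, with overlapping groups and a difference of -0.29 on the log2 scale (limma adjusted p = 0.54). The H4 gene AT1G07820 had a log2 fold change of -0.16 (limma adjusted p = 0.583).

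Replication-type and replacement genes were then set side by side. The 27 replication-type genes had a median log2 fold change of -0.02, with 18 negative and 9 positive, and the 6 replacement genes a median of 0.02, with 2 negative and 4 positive. All 10 H2B genes were among the 18 negative ones. The difference of the medians, 0.04, was smaller than its spread between replicates, 0.0767. It ran from 0.02 without wild type replicate 1 to 0.10 without wild type replicate 2, with 0.10 also without wild type replicate 3, so leaving out any of these 3 moved it by over 2 times, and 2 of them past that spread. Leaving out single libraries moved the replication-type median between -0.08 and 0.01, turning it positive without wild type replicate 3 (0.00316) and without *bron-2* replicate 1 (0.00847), and the replacement median between -0.04 and 0.10, turning it negative without wild type replicate 1 (-0.03) and without *bron-2* replicate 3 (-0.04). Counting H2A.X among the replacement variants left the difference at 0.04. Its 2 genes (-0.20 and 0.07) fall on opposite sides of the replacement median. That median therefore stays in place, which does not test the grouping. In summed level the replication-type genes gave 2281 ± 119.6 FPKM in wild type and 2263 ± 119.8 FPKM in *bron-2*, and the replacement genes 1264 ± 109 and 1312 ± 103 FPKM (SD, n = 3 each). Neither pair of sums differed by more than its spread.

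**Figure D3:**
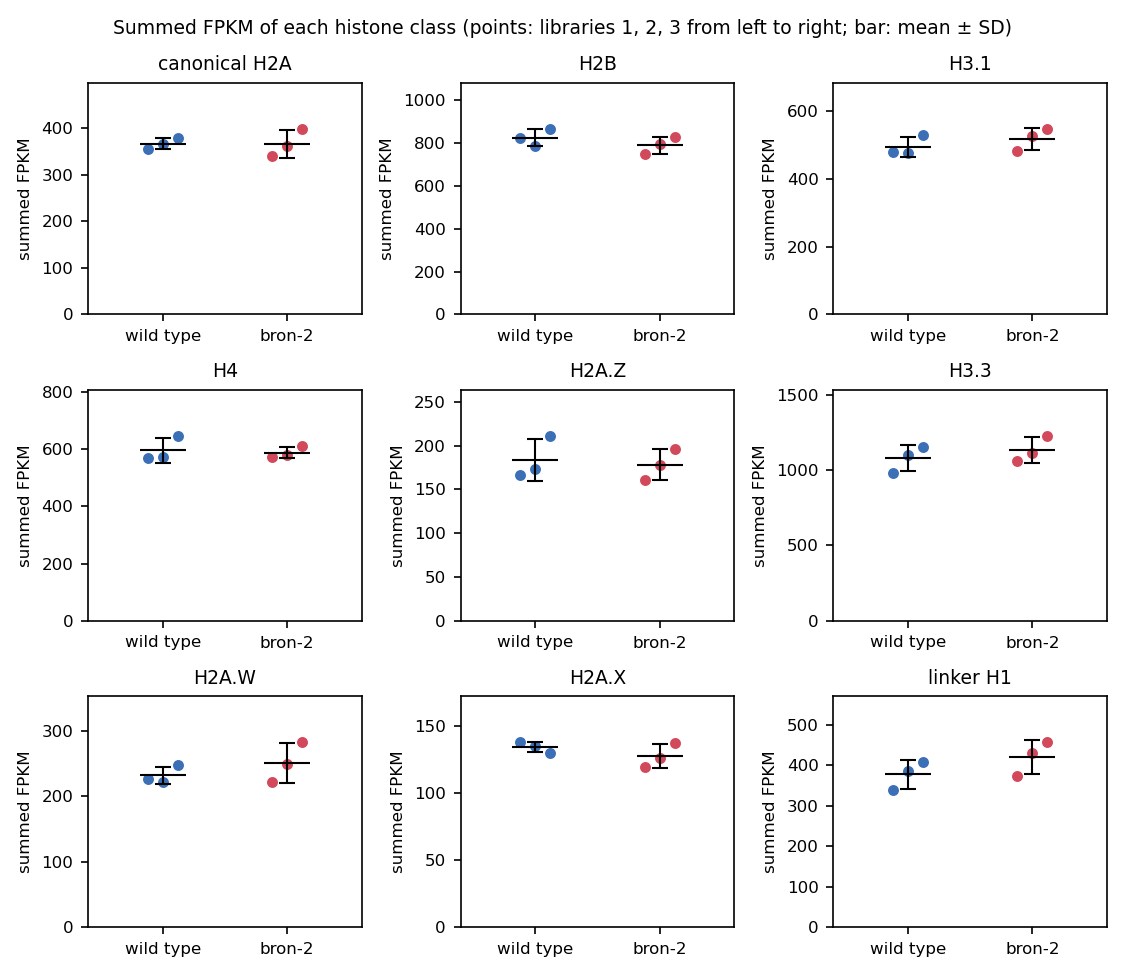
Summed FPKM of the genes of each class in each library (points, replicates 1 to 3 from left to right within a genotype), with the mean and SD over 3 libraries as bars; every axis starts at 0. In all 9 classes the *bron-2* points overlap the wild type points, for example H2B at 786 to 864 against 747 to 826 FPKM.

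By class, the sums of all 9 overlapped between genotypes. H2B was the class in which all tested members had a negative fold change, 10 of 10, with a median of -0.09 and values from -0.32 to -0.01, but none passed the test. The number of negative members was 8 to 10 when single libraries were left out and 9 after quantile normalization, and the H2B sum was 824 ± 38.9 FPKM in wild type and 789.7 ± 39.9 FPKM in *bron-2* (SD, n = 3 each). The H2B gene with the most negative value, *HTB10*, lies wholly within *HTA12* on the opposite strand, so that its reads cannot be told from those of *HTA12* if strand was not used in counting. *HTA12* (H2A.W) was listed at 13.9 to 19.8 FPKM over the 6 libraries and *HTB10* at 0.474 to 1.77 FPKM. H4 was split evenly, 4 negative and 4 positive, with a median of -0.00467, and H3.1 had 2 negative and 3 positive, with a median of 0.04. Canonical H2A had 2 negative and 2 positive. The replacement classes differed in sign, with H2A.Z at 2 negative and 1 positive (median -0.03) and H3.3 at 0 negative and 3 positive (median 0.03).

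The make-up of the H2A family showed the only share that separated the genotypes. H2A.W supplied 25.6%, 24.7% and 25.6% of the summed H2A FPKM in wild type and 26.4%, 27.3% and 27.9% in *bron-2*, means of 25.3% ± 0.499 and 27.2% ± 0.766 (SD, n = 3 each). It was 1 of 16 shares compared, and it was singled out after the values were seen. The H2A.W sum itself overlapped, at 227, 221 and 248 FPKM in wild type and 222, 250.1 and 283 FPKM in *bron-2*, and its 3 genes had log2 fold changes of 0.13, 0.04 and 0.16, none of which passed the test. Canonical H2A (40.0% ± 0.808 and 39.7% ± 0.569), H2A.Z (20.0% ± 1.62 and 19.3% ± 0.175) and H2A.X (14.7% ± 1.11 and 13.9% ± 0.334) made up the rest of the family with overlapping groups.

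Within each genotype the histone genes tended to be high in the same library. In 24 of the 40 tested histone genes (60.0%) replicate 3 held the highest value in wild type and also in *bron-2*, beside 19.2% of all tested genes. This was so for all 6 replacement genes and for 15 of the 27 replication-type genes. Relative to the mean of the 6 libraries, the median replacement gene deviated by 0.14 in wild type replicate 3 and 0.20 in *bron-2* replicate 3 on the log2 scale, and by -0.15 and -0.11 in replicate 1 of each genotype. The median over all tested genes stayed between -0.02 and 0.02 in every library. After quantile normalization, an alternative chosen after the data were seen, the count was again 24 of 40, beside 16.6% of all tested genes. The summed FPKM of all genes was also highest in replicate 3 of both genotypes, at 810099 and 812383. The replicate numbers name the libraries and are not known to mark a shared batch.

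**Figure D4:**
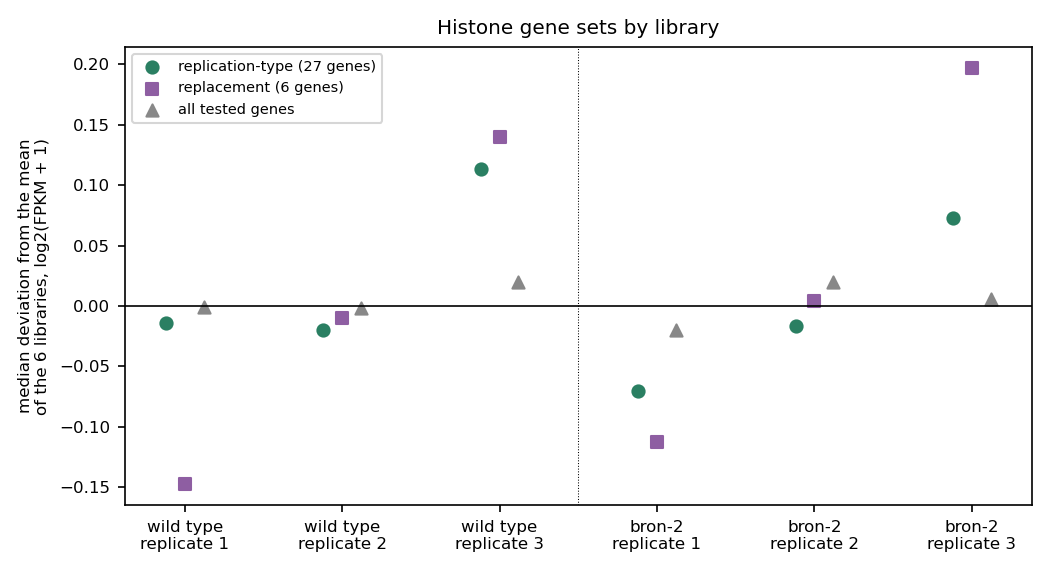
Median deviation from the mean of the 6 libraries on log2(FPKM + 1) for the replication-type genes (circles), the replacement genes (squares) and all tested genes (triangles), one column per library. Replicate 3 of each genotype is the highest for both histone sets, with the replacement genes at 0.14 and 0.20, while all tested genes stay near 0.

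Cell cycle and cell type genes were read in the same libraries. Of 15 tested S-phase genes, among them the *MCM* helicase subunits and *PCNA1*, 11 had negative and 4 positive fold changes with a median of -0.07, and 0 passed limma's unadjusted threshold. Of 8 tested G2/M genes 7 were negative, with a median of -0.08, and 0 passed. Replicate 3 was highest in both genotypes for 5 of the 15 S-phase genes and for 4 of the 8 G2/M genes, and the G2/M sum was 65.6, 65.3 and 82.3 FPKM in wild type and 55.6, 67.2 and 78.9 FPKM in *bron-2*. The differentiated root cell markers summed to 2604, 3216 and 3573 FPKM in wild type and to 3431, 3632 and 4001 FPKM in *bron-2*. The sum of this list was again highest in replicate 3 of each genotype. By gene, replicate 3 was highest in both genotypes for only 4 of the 12 tested markers, and replicate 1 for 3 of 12. *COBL9* and *RSL4* were lowest in replicate 3 of both genotypes. The part of these cell populations in the histone levels was not tested. Of the 12 tested differentiated markers 8 had positive and 4 negative fold changes, and 2 were higher at the unadjusted threshold, where 4.03% of all tested genes passed. Both belong to the Casparian strip domain of the endodermis and had overlapping groups. *CASP2* had 261, 348 and 406 FPKM in wild type and 378, 440.3 and 560.0 FPKM in *bron-2* (log2 fold change 0.44, limma adjusted p = 0.508). *CASP5* had 126, 178 and 237 FPKM, then 212, 255 and 313 FPKM (0.55, limma adjusted p = 0.498). Of the 4 tested meristem markers 2 were lower at that threshold, where 5.76% of all tested genes passed, and *SCR* (0.06) and *SHR* (0.09) had positive fold changes and did not pass. The lower ones encode transcription factors of the root stem cell niche. *PLT2* had 1.63, 1.20 and 1.04 FPKM in wild type and 0.807, 0.706 and 0.672 FPKM in *bron-2* (-0.40, limma adjusted p = 0.465). *PLT3* had 7.29, 10.07 and 10.6 FPKM, then 4.46, 5.94 and 6.75 FPKM (-0.62, limma adjusted p = 0.337). The groups of these 2 genes did not overlap, where 8.67% of all tested genes were so separated with *bron-2* lower. *PLT1*, *WOX5* and *RGF1* did not reach a mean of 1 FPKM and were not tested. *PLT1* averaged 0.843 FPKM in wild type and 0.635 FPKM in *bron-2*, also without overlap. *WOX5* (0.427 and 0.160 FPKM) and *RGF1* (0.166 and 0.132 FPKM) had overlapping groups. Of 5 shoot markers 2 were tested. *RBCS1A* was lower at the unadjusted threshold, with 2.44, 4.32 and 5.20 FPKM against 1.499, 2.15 and 2.79 FPKM and overlapping groups (-0.64, limma adjusted p = 0.461). *RBCS2B* was at 0 in all libraries, and the sum of the shoot markers lay between 22.1 and 35.1 FPKM in wild type and between 22.2 and 30.0 FPKM in *bron-2*.

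The proteins that carry and place histones were followed through 22 chaperone and remodeler genes, all of which were tested. In limma's unadjusted test 2 of 22 were lower and 1 of 22 was higher, where 5.76% and 4.03% of all tested genes passed, so these counts lie near the background. None passed after adjustment. *NAP1;1*, a chaperone of H2A and H2B, was at 44.5, 40.9 and 46.6 FPKM in wild type and 35.4, 37.1 and 40.9 FPKM in *bron-2* (log2 fold change -0.22, limma adjusted p = 0.498). *NRP2*, a related chaperone, was at 22.2, 23.5 and 23.9 FPKM and at 18.3, 20.8 and 19.0 FPKM (-0.25, limma adjusted p = 0.411). All *bron-2* libraries lay below all wild type libraries in 4 of the 22 genes, these and *NRP1* (-0.19, limma adjusted p = 0.531) and *NAP1;2* (-0.04), and above them in 3 of 22, *ARP6*, *CABIN1* (0.15) and *ASF1B* (0.30), beside 8.67% and 7.06% of all tested genes. *ARP6*, a subunit of the SWR1 complex that deposits H2A.Z, was at 7.73, 8.33 and 6.55 FPKM in wild type and 9.20, 9.83 and 10.0 FPKM in *bron-2* (0.33, limma adjusted p = 0.405). The SWR1 genes *PIE1* and *SWC6* had fold changes of 0.01 and 0.14 and did not pass. For H3, the CAF-1 subunit genes *FAS1*, *FAS2* and *MSI1* had log2 fold changes of -0.02, 0.01 and -0.09 and *HIRA* of -0.09, none past the threshold. The median over the 22 genes was -0.00374, with 11 negative and 11 positive. Their summed FPKM was 454, 411 and 406 in wild type and 381, 395 and 387 in *bron-2*, so the sums did not overlap. No test was made of the sum. *NAP1;3*, the most abundant of the 22, had the most negative fold change (-0.29). It averaged 137 FPKM in wild type (170, 131 and 111) and 111 FPKM in *bron-2* (118, 119 and 96.4), with overlapping groups, and did not pass. Without this gene the sums of the list overlapped between the genotypes.

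Reads from nearly identical genes, or from genes that overlap on the chromosome, could be divided between them in ways that FPKM values do not show. Of the 43 histone genes 35 share no 100-base stretch of transcript with another gene, and 8 do. Among these, the H4 genes AT3G45930 and AT3G46320 share 11.1% and 12.1% of their windows and AT1G07660 and AT1G07820 share 6.1% and 4.3%, while coding identity among the 8 H4 genes ran from 78.8% to 98.1%. The rest share windows with a gene that overlaps their locus and not with a copy. For *HTA3*, *HTA12* and *HTB10* that gene is on the opposite strand. The H3.1 gene AT3G27360 shares 31.2% of its windows with AT3G27380, an overlapping gene on the same strand. AT3G27380 was listed at 114 to 133 FPKM, so the 37.8 to 45.3 FPKM of AT3G27360 is uncertain. In all, 10 histone genes overlap another annotated gene.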

How the data were processed

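RNA of root tips was sequenced for 3 wild type and 3 *bron-2* libraries with single-end reads. The authors mapped reads to TAIR10 using Cufflinks (no version given) and deposited FPKM values for 33560 genes. Strand use and the handling of multiply mapped reads are not given in the sources used here. All 6 columns were used and 0 belonged to no sample. The mutant columns carry a code that no label spells out as *bron-2*. They were assigned as the only other genotype, and *BRON* is low in them. The study called genes with PoissonSeq, which needs counts, at an unadjusted threshold of 0.05. Here genes with a mean FPKM of at least 1 (17107) were fitted on log2(FPKM + 1) using limma 3.58.1 in R 4.3.3 (lmFit, eBayes with trend, two-sided, Benjamini-Hochberg over all tested genes). This scale understates changes of low genes. The fit was tested on simulated data. Precision comes from the 3 replicates, since depth in reads is unknown.

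Members and lists were chosen with earlier results of these data known. Values per library are given for the highest gene of each class, H1, *HTA4*, *HTB8*, members at 0 and list genes past the unadjusted threshold. *HTA3*, AT5G10390, AT1G07820 and the genes of single alternatives were named after their values were seen, as were the other genes given for structure, shares or chaperone complexes. Alternatives tried were the pseudocount (0.1), the filter (none, or a mean FPKM of 5 and above), median log ratio scaling, quantile normalization, eBayes without trend, a replicate block and leaving out each library. Promoters (300 bases) and windows (100 bases) came from RefSeq's TAIR10.1 annotation, using Python 3.11.15.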

Additional observations from a re-analysis of the deposited data

How the results depend on the processing

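*BRON*, the only gene called among those refitted and named here (*BRON* and the histone genes), kept a log2 fold change between -3.86 and -3.06 and stayed past the unadjusted threshold under every alternative. The chaperone, cell cycle and marker genes were not followed through the alternatives. The counts of histone genes past an unadjusted p of 0.05 in limma, 0 lower and 0 higher, moved by 1 or 2 genes. Without the filter on low values 1 gene was lower (*HTA3*), and after quantile normalization 1 was higher (AT5G10980, an H3.3 gene). With single libraries left out, the lower count ran from 0 to 2 and the higher count stayed at 0. The correlations of the deviations of same-numbered libraries were 0.123, -0.0133 and 0.186, and whether the numbers pair the samples is not known. With a replicate block 1 gene was lower (AT5G10390) and 2 were higher (AT1G06760 and AT5G10980), while calls over all genes went from 985 to 1293 lower and from 689 to 960 higher. The cause of these moves was not tested. The smallest adjusted p of a histone gene stayed between 0.272 and 0.829, so 0 histone genes passed after adjustment in any alternative. Over all genes the adjusted calls ranged from 7 to 33. With 3 libraries per genotype the widest 95% interval of a histone gene ran from -0.86 to 0.21 on the log2 scale.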
